A study of Mus musculus with 20 samples.

Results

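The comparison is between macrophages that received interferon gamma (IFN-γ) together with CpG DNA and macrophages that received CpG DNA alone, matched for time in culture and read over 3, 9 and 15 h together. It was taken from the raw enhancer count table by stimulus and time as the sample labels give them, and it holds 12 of the 20 libraries of the series: 6 with IFN-γ plus CpG and 6 with CpG, with 2 at each time. The cells were C57BL/6 macrophages grown from bone marrow in medium with macrophage colony-stimulating factor from conditioned medium of L929 cells, so every library shares that culture, and the labels give no altered gene in any group. The 6 libraries of IFN-γ alone, 2 at each time, are set beside the comparison for single enhancers, and the unstimulated libraries were not used. Capped 5′ ends of RNA were counted by nAnT-iCAGE, which is cap analysis of gene expression without an amplification step, over 11222 regions listed as enhancers on the mouse build mm39.

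IFN-γ binds its receptor on the cell surface, signals through the kinases JAK1 and JAK2 and induces transcription factors of the interferon regulatory factor (IRF) family. In macrophages this pathway is known for raising antigen presentation, chemokines that attract T cells and interferon-induced GTPases. CpG DNA is sensed in endosomes by the receptor TLR9, which signals through MyD88 to NF-κB and IRF factors and switches on inflammatory genes. Active enhancers are transcribed from both strands into short, unstable, capped RNAs, and the count of their 5′ ends is used as a reading of enhancer activity.

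The treatment protocol names the stimulating DNA as CpG ODN-1826, a synthetic oligodeoxynucleotide of 20 bases. It is shown because it is the only CpG agent the protocol names, although the protocol does not state that it applies to these libraries and times; capitals mark its 2 CG dinucleotides, the feature TLR9 reads.
CpG ODN-1826: tccatgaCGttcctgaCGtt

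Enhancers took a small share of each library. The whole libraries held 12825701 to 13850094 tags with IFN-γ plus CpG and 12776280 to 13465651 tags with CpG, of which 0.133% to 0.220% and 0.125% to 0.161% fell in enhancers. An enhancer that could be tested had a median of 4 tags per library, so a single value carries large counting error, and 9085 of the 11222 enhancers had too few tags for a test of their own. Levels are given as RPM, tags per 1000000 tags of the whole library. The labels call the 2 libraries of a group biological replicates but do not say whether they came from separate mice or cultures, so p-values measure the spread between these libraries. The labelled cell type could not be set against marker genes, because the table names regions and no genes.

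Adding IFN-γ to CpG moved many enhancers both up and down. Of 2137 enhancers tested with the times pooled, 706 (33.0%) were called at an adjusted p under 0.05 by edgeR's quasi-likelihood test with time as a block. The calls comprised 426 rises (19.9%) and 280 falls (13.1%), while the log2 change of all 2137 had a median of 0.02. DESeq2 called 528, of which 367 (69.5%) were rises, against 60.3% with edgeR, at a median log2 change of 0.09 over all 2137. The median rise was larger than the median fall. Among the 387 rises with a tag in both groups the log2 change ran from 0.66 to 5.40 with a median of 2.07, and 92 reached 3 or more. Among the 276 falls with a tag in both groups it ran from -4.06 to -0.35 with a median of -1.67, and 12 reached -3 or less. The other 39 rises and 4 falls had no tag in the lower group. With these at the bound that 3 tags over the group allow, the median was 2.26 for all 426 rises and -1.67 for all 280 falls. In bulk RNA, fewer transcribing cells and less enhancer RNA per cell cannot be told apart. The robust fit gave many tested enhancers no spread of their own but the one shared by all. This makes the p-values of unusually variable ones among them too small. The common coefficient of variation was 23.9% in this fit, which pools the times, and 16.7% in a fit with 6 groups of stimulus and time.

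Calls were made at all levels of transcription. Of the 535 tested enhancers with the lowest mean, 0.0956 to 0.232 RPM, 23.7% were called higher and 15.7% lower, and of the 534 with the highest, 0.455 to 8.95 RPM, 21.5% were called higher and 16.3% lower. The 2 sets of 534 between them had 17.2% called higher in each, and 10.5% and 9.93% called lower. An enhancer with a low mean passes the filter only where some libraries lie well above the rest. The shares called among the lowest therefore depend on the filter. The size of the called changes went the other way. With enhancers that lacked a tag in 1 group taken at their bound, the median rise was 2.86 on the log2 scale among the lowest and 1.42 among the highest, and the median fall was -2.21 and -1.09. Low enhancers need a larger change to pass the test, so these medians depend on the level.

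**Figure D1:**
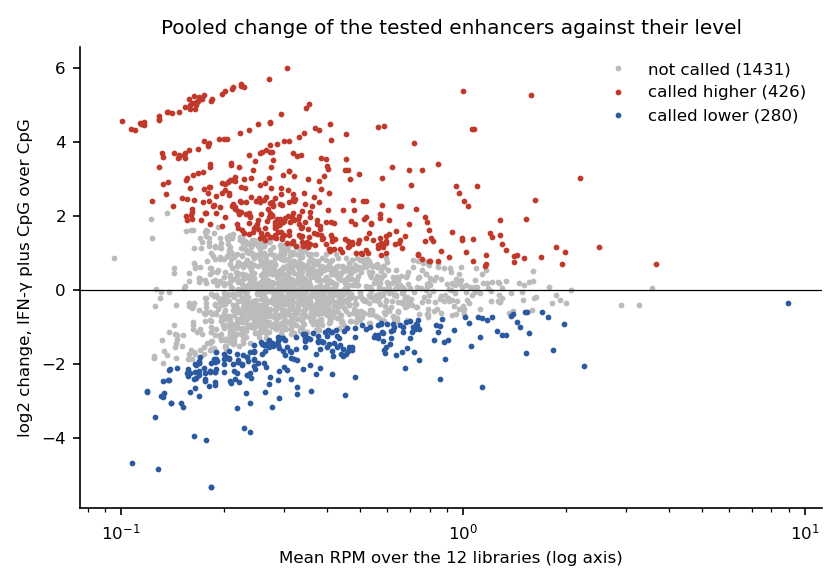
Each point is 1 of the 2137 tested enhancers; the x axis is its mean RPM over the 12 libraries on a log axis and the y axis the log2 change of IFN-γ plus CpG over CpG with times pooled. The 426 enhancers called higher are red, the 280 called lower are blue and the rest are grey. The called points reach 5.40 and -4.06 where both groups had a tag; points beyond these had no tag in 1 group and are plotted at fitted values, which are no measure of size.

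The set of enhancers with the smallest p among the rises went from very low levels with CpG to levels well above them with the combination at every time. The first (rise 1, chr1:176651455-176651913) had 5.99 and 8.20 RPM at 3 h, 1.14 and 0.761 RPM at 9 h and 1.25 and 1.25 RPM at 15 h with IFN-γ plus CpG. With CpG it had 0.149 and 0.229 RPM at 3 h and no tag in the 4 later libraries. Its 3 h libraries with the combination were the highest by far, and all 6 combination libraries lay above all 6 CpG libraries. The log2 change was 5.29 (SE 0.42, adjusted p = 8.29e-33, edgeR), from 252 tags with the combination and 5 with CpG.

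Rise 2 (chr5:121537641-121537963) was the steadiest. It had 3.61 and 3.92 RPM at 3 h, 4.31 and 3.58 RPM at 9 h and 4.57 and 3.66 RPM at 15 h with IFN-γ plus CpG, against 0.382 to 0.538 RPM in the 6 CpG libraries. The groups were far apart and flat over time, with a log2 change of 3.03 (SE 0.26, adjusted p = 3.92e-29, edgeR). Rise 3 (chr16:17285443-17285962) was higher at 9 and 15 h than at 3 h in the combination. It had 0.433 and 0.739 RPM at 3 h, 3.33 and 2.43 RPM at 9 h and 2.07 and 2.81 RPM at 15 h with IFN-γ plus CpG, against 0.149 RPM at most with CpG. There were 16 tags with the combination and 2 with CpG at 3 h, a ratio of 7.74 (95% counting interval 1.82 to 69.4), and 76 and 1 tags at 9 h, a ratio of 77.5 (13.5 to 3102.1). At 15 h there were 64 and 0 tags, at least 20.9-fold higher by a floor of 3 tags over the CpG libraries. The difference of the effect between 15 h and 3 h did not pass the test (adjusted p = 0.258, edgeR).

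Rises 4 and 5 were well above CpG at every time. Rise 4 (chr3:121164067-121164375) had a lowest, median and highest value of 1.23, 2.08 and 3.02 RPM with IFN-γ plus CpG and 0, 0.113 and 0.153 RPM with CpG. Rise 5 (chrY:90850402-90850945) had 1.70, 1.94 and 2.49 RPM with IFN-γ plus CpG and 0, 0.0371 and 0.305 RPM with CpG. Neither enhancer's groups overlapped, and both were called at each time. Rise 5 is 1 of 2 tested enhancers on the Y chromosome; the mouse X and Y share a near-identical stretch, and how the authors treated reads with more than 1 match is not given in the sources used here, so its position is uncertain.

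Rise 6 (chr11:21189605-21190141) had a lowest, median and highest value of 1.01, 1.29 and 1.85 RPM with IFN-γ plus CpG and 0, 0.0744 and 0.154 RPM with CpG. Rise 7 (chr10:7710717-7711320) had 1.70, 2.20 and 5.46 RPM with IFN-γ plus CpG and 0.298, 0.489 and 0.704 RPM with CpG. Rise 8 (chr4:132459018-132459199) had 1.17, 1.52 and 2.13 RPM with IFN-γ plus CpG and 0, 0.0755 and 0.307 RPM with CpG. In all 3, every combination library lay above every CpG library. Rise 7 was highest at 15 h in the combination, at 3.39 and 5.46 RPM, and rise 6 at 3 h, at 1.66 and 1.85 RPM.

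Rise 9 (chr19:29343572-29344121) had a lowest, median and highest value of 0.913, 1.61 and 3.47 RPM with IFN-γ plus CpG and 0, 0.301 and 0.522 RPM with CpG. Rise 10 (chr19:11517556-11517878) had 0.151, 0.960 and 2.14 RPM with IFN-γ plus CpG and 0, 0 and 0.154 RPM with CpG. Pooled over the times, its groups overlapped: a 9 h combination library at 0.151 RPM lay under a 15 h CpG library at 0.154 RPM. Rise 11 (chr15:74870658-74871129) had 0.295, 0.889 and 2.29 RPM with IFN-γ plus CpG and 0, 0.0373 and 0.0783 RPM with CpG. Rise 12 (chr4:132521270-132521724) had 1.07, 1.33 and 1.73 RPM with IFN-γ plus CpG and 0, 0.0765 and 0.373 RPM with CpG. Rises 9, 10 and 11 shared their highest values at 3 h, whereas rise 12 stayed level. Over the 12 rises the log2 change ran from 2.43 to 5.40 with SE of 0.26 to 0.55 and adjusted p (edgeR) of at most 1.56e-13. The 12 were picked for a small p in these same libraries, so the gaps between their groups are a description.

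The size of these rises rests on few CpG tags. The ratio of RPM for rise 1 was 49.8 (95% counting interval 21.1 to 154.7), and without CpG 3 h replicate 2 it was 103.9 (28.5 to 862.5). For rise 3 it was 51.4 (17.3 to 251.8), and 128.1 (22.6 to 5090) without CpG 3 h replicate 1. For rise 5 it was 23.0 (10.9 to 58.1), and 44.8 (15.1 to 219.5) without CpG 3 h replicate 2. Single CpG libraries thus moved these ratios by more than 1.5 times while the direction and the call stayed. The same held for rise 10, at 29.0 with all libraries and 72.7 without CpG 15 h replicate 1, and for rise 12, at 9.97 and 15.2 without CpG 9 h replicate 1. The intervals cover counting error only. Rises 1, 3, 4, 5, 6, 8, 10 and 11 had at most 4 tags in any CpG library, below the filter's minimum count of 5. Rise 12 reached 5 tags in only 1 CpG library, where the filter needs more than 1. All of these passed the filter through the combination, so their direction was largely fixed by that choice. The gap between their groups and their kept calls add no support for the direction.

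**Figure D2:**
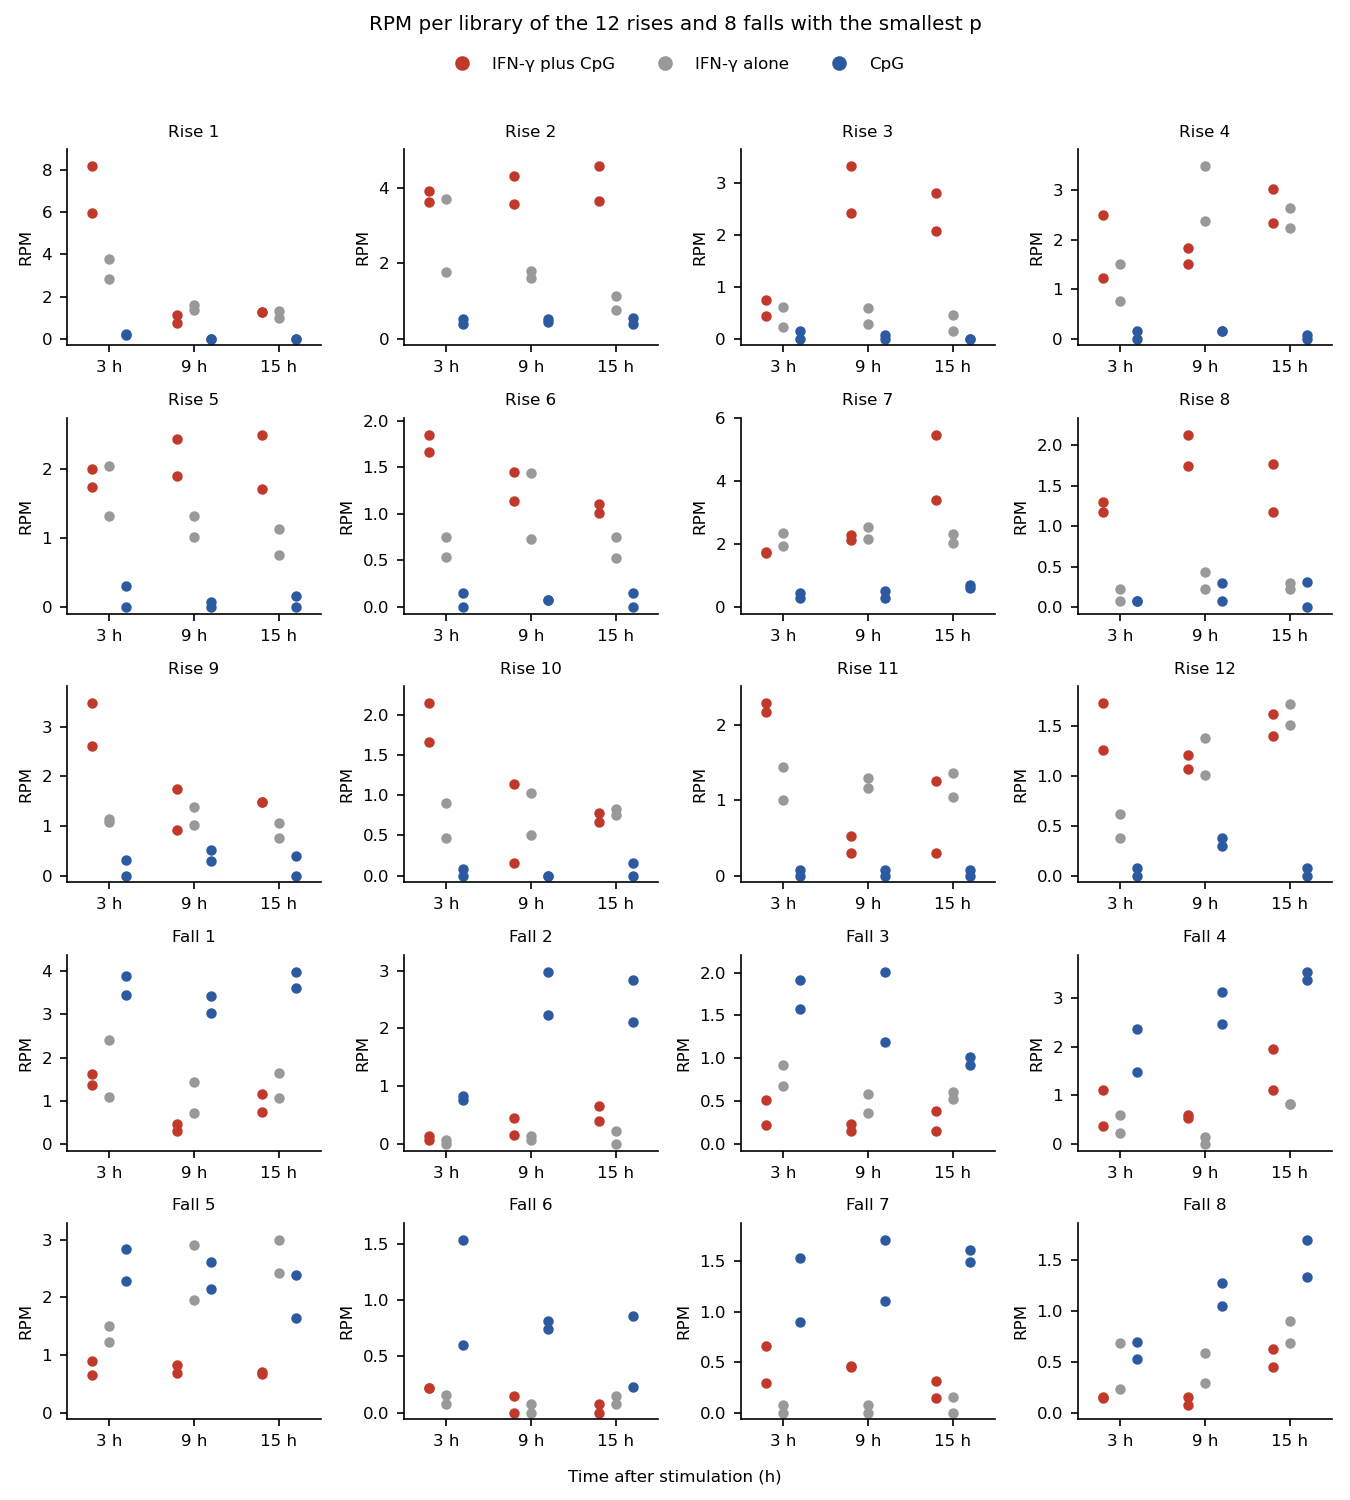
Each panel shows 1 enhancer, with RPM on the y axis (from 0, its own scale) and time in hours on the x axis; each point is 1 library with IFN-γ plus CpG (red), IFN-γ alone (grey) or CpG (blue). In the 12 rises the red points lie above the blue points at each time, and in the 8 falls below them. In rise 8 the grey points lie among or just above the blue ones, and in fall 5 the red points lie below both other colours at each time.

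Another 39 tested enhancers, 1.82% of those tested, had no tag in any of the 6 CpG libraries. They passed the filter only through the combination, so their direction was fixed by that choice; they held a median of 26 and at most 49 tags over the 6 combination libraries. Among them were the 4 further rises named by their fitted log2 change, which against 0 tags is no measure of size. The enhancer chr4:116512915-116513101 had 0.505 and 0.813 RPM at 3 h, 0.681 and 0.380 RPM at 9 h and 0.516 and 0.780 RPM at 15 h with IFN-γ plus CpG, against 0 RPM in the 6 CpG libraries. It was present in every combination library and at least 16.1-fold higher, taking 3 tags over the 6 CpG libraries as the floor.

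The enhancers chr15:74871437-74872172 and chr19:11471944-11472230 were each at least 11.9-fold higher by the same floor. They had 0.304 to 0.591 RPM and 0.228 to 0.961 RPM with IFN-γ plus CpG and 0 RPM with CpG. The enhancer chr11:21170765-21171099 had 0.578 and 2.07 RPM at 3 h, 0.151 and 0.304 RPM at 9 h and 0 and 0.156 RPM at 15 h with IFN-γ plus CpG, and 0 RPM with CpG. It was at least 14.5-fold higher, but at least 6.34-fold without IFN-γ plus CpG 3 h replicate 2, the library that held most of its tags. It was also the 1 named enhancer that lost its call under an alternative, limma on log2(RPM + 2), with a log2 difference of 0.30 and an adjusted p of 0.105. Since its direction was fixed by the filter, its calls under the other alternatives add no support.

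The 8 falls with the smallest p were enhancers that CpG alone held at 0.796 to 3.57 RPM on average. The first (fall 1, chr2:180085365-180085953) had 1.37 and 1.63 RPM at 3 h, 0.454 and 0.304 RPM at 9 h and 0.738 and 1.17 RPM at 15 h with IFN-γ plus CpG, against 3.88 and 3.44 RPM, 3.43 and 3.04 RPM, and 3.61 and 3.99 RPM with CpG at the same times. CpG libraries were level over time and every combination library lay below them. The log2 change was -2.04 (SE 0.23, adjusted p = 3.35e-16, edgeR). Fall 2 (chr6:146014641-146015042) had 0.0739, 0.271 and 0.664 RPM as lowest, median and highest with IFN-γ plus CpG and 0.764, 2.17 and 2.98 RPM with CpG. With CpG this enhancer was higher at 9 and 15 h than at 3 h, and with the combination it stayed under the lowest CpG library at each time.

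Fall 5 (chr5:34684166-34684741) was the most uniform of the falls. It had 0.650, 0.693 and 0.887 RPM as lowest, median and highest with IFN-γ plus CpG and 1.64, 2.34 and 2.84 RPM with CpG. The groups did not overlap and the log2 change was -1.69 (SE 0.26, adjusted p = 4.22e-09, edgeR). Fall 3 (chr4:141153374-141153582) had 0.148 to 0.517 RPM with IFN-γ plus CpG and 0.922 to 2.01 RPM with CpG. Fall 6 (chr2:13409909-13410211) had 0 to 0.222 RPM with IFN-γ plus CpG and 0.231 to 1.53 RPM with CpG. Fall 7 (chr5:91048099-91048421) had 0.148 to 0.665 RPM with IFN-γ plus CpG and 0.896 to 1.71 RPM with CpG. None of these 3 overlapped between the groups, although fall 6 came close, with 0.222 RPM in a 3 h combination library and 0.231 RPM in a 15 h CpG library.

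Fall 4 (chr11:97200213-97200543) and fall 8 (chr6:145286375-145286797) overlapped once the times were pooled. Fall 4 had 0.361 to 1.95 RPM with IFN-γ plus CpG and 1.49 to 3.54 RPM with CpG, and fall 8 had 0.0757 to 0.624 RPM and 0.523 to 1.69 RPM. Both had their highest combination and their highest CpG values at 15 h, so the groups stayed apart within each time. Over the 8 falls the log2 change ran from -2.83 to -1.61 with SE of 0.23 to 0.48 and adjusted p (edgeR) of at most 8.74e-07. The 8 were likewise picked for a small p, so the gaps between their groups are a description. The 3 further falls named by size, among those with a mean of 5 or more tags with CpG and 1 direction at all times, held 2 or 3 tags in the combination. The enhancer chr5:90759196-90759569 had 2 tags with IFN-γ plus CpG and 36 with CpG, a ratio of 18.2 (95% counting interval 4.69 to 156.2). The enhancer chr13:12662646-12663165 had 2 and 34 tags, a ratio of 17.2 (4.41 to 147.8), and chr11:3860646-3860957 had 3 and 32 tags, a ratio of 10.8 (3.38 to 55.1). All 3 were called lower, and their ratios rest on single combination libraries. They passed the filter through CpG, so their direction was largely fixed by that choice. The same holds for fall 6, with at most 3 tags in any combination library, and for fall 3. Fall 3 had at most 7 tags, in the combination library with the most enhancer tags. The minimum count is scaled to library size, and by that scaling no combination library reached it. The gaps between the groups of falls 3 and 6 add no support for their direction. The ratio of the first of the 3 further falls was 30.3 without 3 h replicate 2 and 30.6 without 15 h replicate 2. The second was 28.7 without 9 h replicate 1 and 28.9 without 15 h replicate 2, and the last was 26.8 without 3 h replicate 1.

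The libraries of IFN-γ alone show which of these enhancers lay outside the levels of both single stimuli. The test against them was chosen after these values were seen, shares the 6 combination libraries with the comparison above, runs over the 18 stimulated libraries with time as a block and called 533 of 2536 enhancers (21.0%) between the combination and IFN-γ alone. Of the 16 named rises 3 were called higher than IFN-γ alone and 0 lower, and the other 13 were not called, which does not show that they were equal. For the 11 named falls 2 were called higher and 5 lower than IFN-γ alone. Rise 1, for example, averaged 3.10 ± 3.18 RPM with the combination, 1.98 ± 1.10 RPM with IFN-γ alone and 0.0631 ± 0.101 RPM with CpG (SD, n = 6 each).

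The 3 rises called above IFN-γ alone were rises 2, 3 and 8. Rise 8 averaged 1.55 ± 0.391 RPM with the combination, 0.247 ± 0.118 RPM with IFN-γ alone and 0.138 ± 0.131 RPM with CpG (SD, n = 6 each), so that neither stimulus alone gave a level near that of the combination. Its log2 difference from IFN-γ alone was 2.48 (SE 0.37, adjusted p = 4.30e-09, edgeR). Rise 3 averaged 1.97 ± 1.15 RPM with the combination, 0.385 ± 0.190 RPM with IFN-γ alone and 0.0373 ± 0.0624 RPM with CpG, a log2 difference of 2.10 from IFN-γ alone (SE 0.33, adjusted p = 4.12e-08). Rise 2 averaged 3.94 ± 0.414 RPM with the combination, 1.79 ± 1.02 RPM with IFN-γ alone and 0.467 ± 0.0698 RPM with CpG, a difference of 0.99 (SE 0.23, adjusted p = 0.000415). At 3 h rise 2 was as high in 1 library of IFN-γ alone, at 3.70 RPM, as with the combination, and the 2 groups parted at 9 and 15 h.

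Fall 5 was the mirror case. It averaged 0.737 ± 0.0985 RPM with the combination, 2.17 ± 0.727 RPM with IFN-γ alone and 2.32 ± 0.410 RPM with CpG (SD, n = 6 each), below every library of either single stimulus. Its log2 difference from IFN-γ alone was -1.74 (SE 0.28, adjusted p = 4.75e-08, edgeR). Fall 7 lay between the single stimuli, at 0.387 ± 0.179 RPM with the combination, 0.0496 ± 0.0610 RPM with IFN-γ alone and 1.39 ± 0.317 RPM with CpG, and was called higher than IFN-γ alone (2.56, SE 0.63, adjusted p = 0.000767). Fall 2 had the same order at 0.313, 0.0866 and 1.96 RPM, with a smaller margin (1.60, SE 0.58, adjusted p = 0.0339), which DESeq2 did not call (adjusted p = 0.0808). Falls 1, 3 and 8 and chr13:12662646-12663165 were the others called lower than IFN-γ alone; scaled to whole-library totals, falls 1 and 8 were not (adjusted p = 0.137 and 0.0579).

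Tested within each time, the effect was called most often at 3 h. At 3 h 437 enhancers (20.4%) were called, 295 higher (13.8%) and 142 lower (6.64%). At 9 h 191 (8.94%) were called, 126 higher (5.90%) and 65 lower (3.04%), and at 15 h 194 (9.08%), 135 higher (6.32%) and 59 lower (2.76%). With 2 libraries a group these counts depend on each library: without any 1 of the 4 libraries of a time 3 h gave 183 to 252, 9 h gave 66 to 78 and 15 h gave 57 to 80 calls. DESeq2 called 93, 50 and 30 at the 3 times, of which 76 (81.7%), 44 (88.0%) and 26 (86.7%) were rises. The split between directions also depends on the scaling. With whole-library totals the rises were 325 of 414 calls at 3 h (78.5%, against 67.5% with TMM factors), 92 of 192 at 9 h (47.9%, against 66.0%) and 142 of 181 at 15 h (78.5%, against 69.6%), with medians of 0.27, -0.28 and 0.19 (log2 change) over all 2137 enhancers.

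The 3 times use separate libraries, so calls at 1 time could be read at another, but they share 1 filter over the 12 libraries. Enhancers with few or no CpG tags passed it through the combination, and those with few combination tags through CpG. Such enhancers could hardly go the other way at another time, which raises the shares that kept their direction. These shares are therefore a description. Of the 295 rises at 3 h, 266 (90.2%) were higher at 9 h, where 48.5% of all tested enhancers were higher, and 258 (87.5%) were higher at 15 h, where 52.1% of all were. Of the 142 falls at 3 h, 119 (83.8%) were lower at 9 h and 112 (78.9%) at 15 h, where 51.3% and 47.8% of all tested enhancers were lower. The rises called at 9 h were higher at 15 h in 124 of 126 (98.4%). No enhancer was called higher at 1 time and lower at another. The log2 changes of all 2137 enhancers correlated across enhancers between 3 and 9 h (Pearson r = 0.57), 3 and 15 h (r = 0.54) and 9 and 15 h (r = 0.62); enhancers are not independent replicates and share their libraries.

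Few enhancers passed the test at every time. Of the 2137, 40 (1.87%) were called higher and 10 (0.468%) lower at all 3 times, and 210 of the 706 pooled calls (29.7%) were not called at any single time. Read by library instead, 229 enhancers (10.7%) had both combination libraries above both CpG libraries at 3, 9 and 15 h, and 132 (6.18%) had both below at all 3. Of the 426 pooled rises 224 (52.6%) were in the first set, and of the 280 pooled falls 122 (43.6%) in the second; both readings come from the same libraries. The rises summed to 351.5, 229.9 and 285.9 RPM at 3, 9 and 15 h with IFN-γ plus CpG and 56.4, 77.0 and 82.0 RPM with CpG. Since these enhancers were chosen by the same libraries, the sums are a description. The falls summed to 78.7, 62.9 and 89.7 RPM with IFN-γ plus CpG and 179.2, 204.1 and 188.6 RPM with CpG.

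A difference of the effect between times was called rarely. The effect at 15 h minus that at 3 h was called for 8 enhancers (0.374%), 4 each way, and 251 had an unadjusted p under 0.05. Any difference among the 3 times was called for 12 (0.562%), of which 6 were among those 8 and 3 among the pooled calls. DESeq2 called 0 of either kind, with 116 and 91 at an unadjusted p under 0.05. Without IFN-γ plus CpG 3 h replicate 2, CpG 3 h replicate 1 or CpG 3 h replicate 2, edgeR called 0 for 15 h minus 3 h (227, 201 and 237 at an unadjusted p under 0.05). The calls for this contrast thus depend on single 3 h libraries, and the values of the enhancers named for it are given at each time as measured.

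The first 3 were called lower with added IFN-γ at 3 h and had positive changes at 15 h that were not called. At chr7:75319181-75319526 the libraries had 0.866 and 1.33 RPM at 3 h and 7.23 and 4.21 RPM at 15 h with IFN-γ plus CpG, against 2.09 and 2.60 RPM at 3 h and 4.23 and 3.44 RPM at 15 h with CpG. At 3 h both combination libraries lay below both CpG libraries, while at 15 h 1 combination library lay above them and the other between. The log2 change was -1.33 (SE 0.34, adjusted p = 0.00187) at 3 h and 0.49 (SE 0.25, adjusted p = 0.226) at 15 h (edgeR). At chr11:102319827-102320230 there were 4 and 19 tags at 3 h and 36 and 15 tags at 15 h (combination and CpG), with log2 changes of -2.46 (SE 0.72) and 1.08 (SE 0.49). At chr11:8544429-8544852 there were 0 and 15 tags at 3 h and 8 and 1 tags at 15 h, so that it was at least 5.17-fold lower at 3 h, against a floor of 3 tags over the 2 combination libraries, and had a ratio of 7.82 at 15 h (95% counting interval 1.05 to 346.9).

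The other 3 were called higher with added IFN-γ at 3 h and not called at 15 h. At chr13:5839351-5839665 the libraries had 4.40 and 6.28 RPM at 3 h, 2.35 and 2.66 RPM at 9 h and 2.36 and 3.12 RPM at 15 h with IFN-γ plus CpG, against 0.523 and 1.07 RPM, 2.68 and 1.26 RPM, and 1.23 and 2.04 RPM with CpG. The groups were far apart at 3 h, overlapped at 9 h and stood apart again, more closely, at 15 h. At chr17:36334414-36334921 the libraries had 2.17 and 3.33 RPM at 3 h and 0.516 and 1.72 RPM at 15 h with IFN-γ plus CpG, against 0 and 0.153 RPM at 3 h and 0.154 and 0.783 RPM at 15 h with CpG. At chr6:125328365-125328532 there were 53 and 7 tags at 3 h and 12 and 21 tags at 15 h (combination and CpG). The sign of its change turned, with log2 changes of 2.59 (SE 0.54, adjusted p = 8.28e-05) at 3 h and -0.96 (SE 0.56, adjusted p = 0.317) at 15 h (edgeR).

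**Figure D3:**
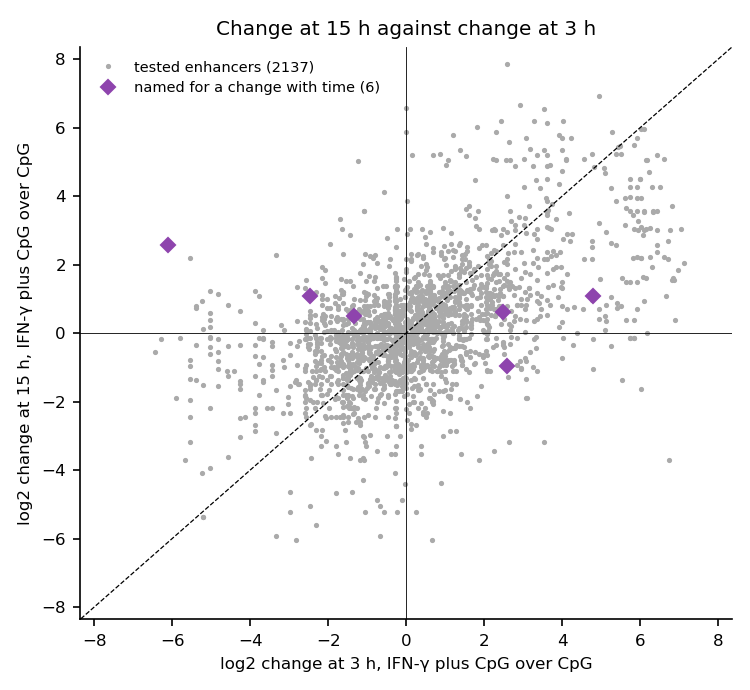
Each grey point is 1 of the 2137 tested enhancers, with the log2 change of IFN-γ plus CpG over CpG at 3 h on the x axis and at 15 h on the y axis; the dashed line marks equal changes. The 6 enhancers named for a change with time (purple diamonds) lie off the line, 3 with a negative change at 3 h and 3 with a positive one.

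Summing neighbours brought in enhancers too low to test alone. Enhancers at most 10000 bases apart were joined, which gave 2355 groups with a median of 2 and at most 21 enhancers. Of the 1625 groups tested, 682 (42.0%) were called by edgeR, 378 higher (23.3%) and 304 lower (18.7%), with median log2 changes of 1.74 for the 367 rises with a tag in both groups and -1.32 for the falls. With the other 11 rises, which had no CpG tag, at their bound, the median rise was 1.77. These 11 passed the filter only through the combination, so their direction was fixed. Of the called groups 292 (42.8%) had no called member and 179 (26.2%) no member with enough tags for a test. With whole-library totals 589 were called, of which 406 (68.9%) were rises, against 55.4% with TMM factors, at a median of 0.16 over all groups.

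The group with the smallest p spans 10 enhancers (chr4:132521270-132543954), with rise 12 at its start. It had 5.71 ± 1.33 RPM at 3 h, 3.72 ± 0.443 RPM at 9 h and 4.17 ± 0.164 RPM at 15 h with IFN-γ plus CpG, against 0.113 ± 0.0516, 0.930 ± 0.265 and 0.544 ± 0.117 RPM with CpG (SD, n = 2 each). The 2 sets of values were apart at each time, and the log2 change was 2.94 (SE 0.24, adjusted p = 1.85e-26, edgeR). The next groups were led by rises 2, 1, 4 and 5, with log2 changes of 2.96, 3.11, 4.41 and 4.10. Those of rises 4 and 5 had at most 2 and 4 tags in any CpG library. They passed the filter through the combination, so their direction was largely fixed. Around rise 1 (chr1:176639887-176661898, 8 enhancers) a second member, chr1:176655010-176655584, was also called, with 61 tags with IFN-γ plus CpG and 15 with CpG and a log2 change of 1.87 (SE 0.46, adjusted p = 0.000446). Among the falls, the group around fall 1 (chr2:180078883-180087410, 5 enhancers) had 1.53 ± 0.129 RPM at 3 h, 0.569 ± 0.0515 RPM at 9 h and 1.22 ± 0.477 RPM at 15 h with IFN-γ plus CpG, against 4.34 ± 0.0925, 3.91 ± 0.167 and 4.39 ± 0.660 RPM with CpG. In the group around fall 7 (chr5:91042167-91050499) all 3 tested members were called lower, and in that around fall 2 (chr6:146014641-146022001) both were. A member of each, chr5:91048573-91048982 and chr6:146021739-146022001, held 4 tags over the combination libraries and so passed the filter through CpG.

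Called neighbours mostly shared a direction. Of 101 adjacent pairs of called enhancers at most 10000 bases apart 98 (97.0%) moved the same way, where 411 of the 547 adjacent tested pairs (75.1%) had the same sign of log2 change. Neighbouring regions are not independent. Longer runs were sought after the calls were known, by joining called enhancers of 1 direction at most 100 kb apart with no call of the other direction between them. There were 5 runs of 5 or more rises and 2 of 5 or more falls, and they get no test of their own. Members with few or no tags in 1 group passed the filter through the other group, so their direction was largely fixed. The shares of tested members called are therefore a description.

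Run 1 (chr15:74792522-74923036) held 6 tested enhancers, all called higher, and includes rise 11. Its 17 listed enhancers summed to 4.51 ± 1.88 RPM with IFN-γ plus CpG and 0.532 ± 0.241 RPM with CpG (SD, n = 6 each). The enhancer at its start rose least (log2 change 1.42, SE 0.40), 2 others rose by 3.66 (SE 0.64) and 4.43 (SE 0.55), and the remaining 3 had 21 to 36 tags with the combination and none with CpG. The 2 others had 3 tags each over the 6 CpG libraries. All but the enhancer at the start thus passed the filter through the combination, and their calls could hardly go the other way. Run 6 (chr4:132459018-132534471) holds rises 8 and 12, with 5 of 7 tested enhancers called higher, and its 10 listed enhancers summed to 6.42 ± 0.820 RPM with IFN-γ plus CpG and 0.997 ± 0.376 RPM with CpG. The 2 rises lie about 62.25 kb apart and differ in the libraries of IFN-γ alone, where rise 8 had 0.247 RPM and rise 12 had 1.10 RPM on average, while CpG left both at 0.138 and 0.137 RPM.

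Run 5 (chr19:11349540-11517878) had 5 of 5 tested enhancers called higher, rise 10 among them. Its first enhancer, chr19:11349540-11350041, behaved unlike the other 4 towards the single stimuli: it averaged 4.54 RPM with the combination, 0.185 RPM with IFN-γ alone and 2.83 RPM with CpG. It rose less over CpG than the other 4 (log2 change 0.71, SE 0.19, adjusted p = 0.00168, edgeR). The other 4 averaged 0.442 to 1.09 RPM with the combination, 0.337 to 0.745 RPM with IFN-γ alone and 0 to 0.140 RPM with CpG. Run 7 (chr6:38917567-38984493) had 5 of 5 called higher, 4 of them at log2 changes of 3.02 to 3.80 and 1 with 27 tags with the combination and none with CpG, and run 3 (chr8:47295710-47394979) 6 of 7, at 1.11 to 2.90.

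Run 2 (chr8:35059776-35282764), the widest at 222988 bases, was made of falls. Of 9 tested enhancers 6 were called lower, the other 3 had log2 changes of -1.35, -1.18 and -0.22, and the 20 listed enhancers summed to 1.89 ± 0.442 RPM with IFN-γ plus CpG and 6.03 ± 1.66 RPM with CpG (SD, n = 6 each). Its members were also low with IFN-γ alone, at 0.0868 to 0.273 RPM. Run 4 (chr11:114775634-114895102) had 5 of 5 called lower, at log2 changes of -3.43 to -0.60, and its 11 listed enhancers summed to 1.83 ± 0.665 RPM with IFN-γ plus CpG and 4.11 ± 0.871 RPM with CpG. On average 4 of these 5 were below both single stimuli, which was not tested. The enhancer chr11:114788923-114789329 was at 0.139 RPM with the combination, 0.565 RPM with IFN-γ alone and 0.403 RPM with CpG. The enhancer chr11:114894820-114895102 was at 1.26, 1.33 and 1.79 RPM in the same order. The enhancers chr11:114775634-114775879 and chr11:114820544-114820762, at 0.0246, 0.149 and 0.276 RPM and at 0.0130, 0.0499 and 0.238 RPM, rest on 2 and 1 combination tags.

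**Figure D4:**
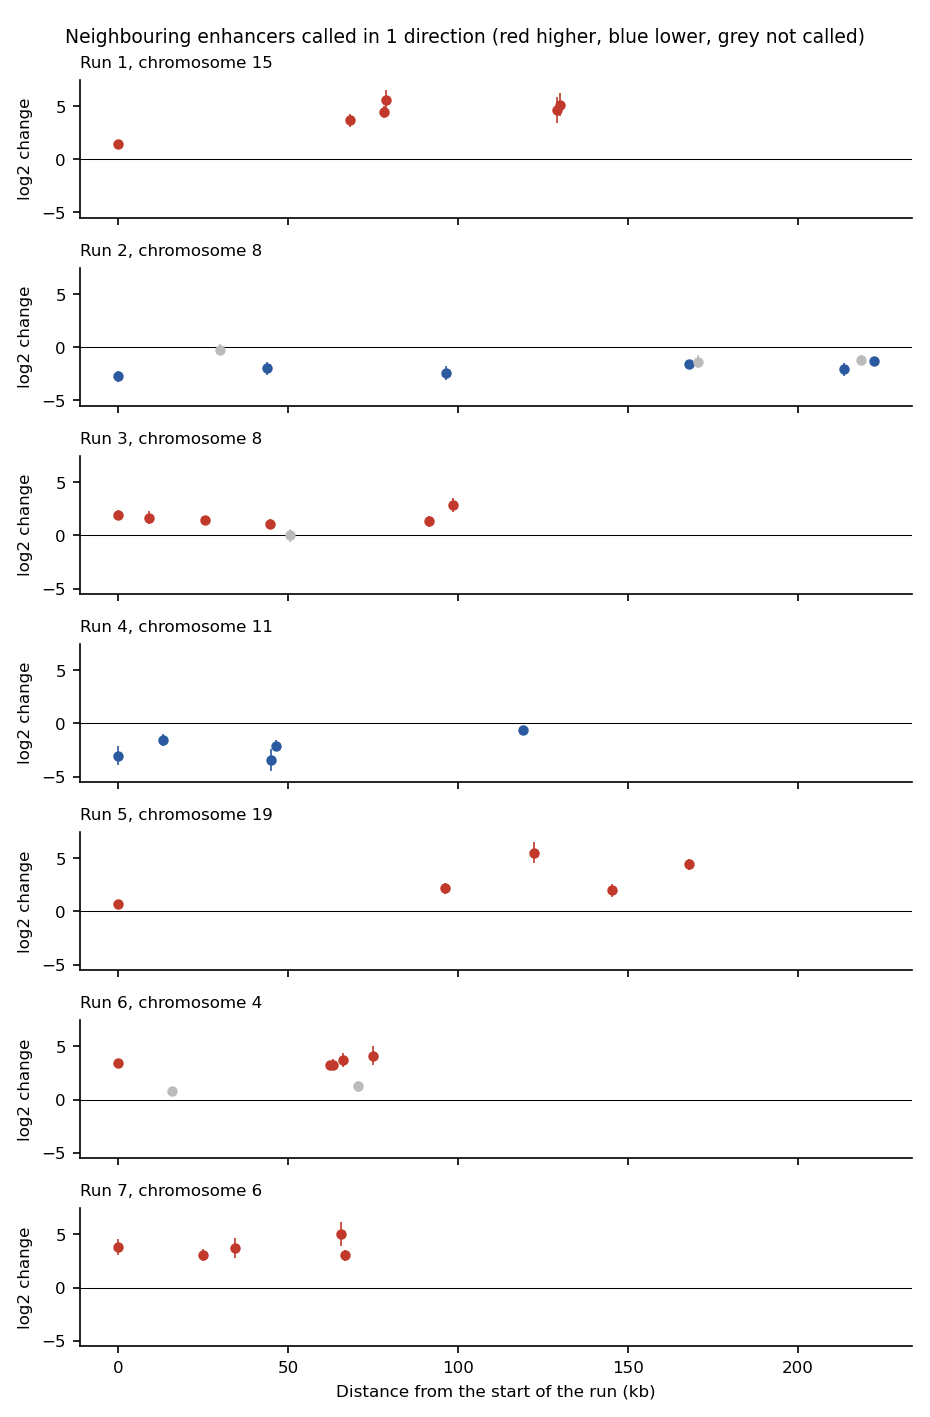
Each panel is 1 run of neighbouring enhancers, with the distance from its start in kb on the x axis and the pooled log2 change of IFN-γ plus CpG over CpG on the y axis; points are tested enhancers and bars their SE. Enhancers called higher are red (runs 1, 3, 5, 6 and 7), those called lower blue (runs 2 and 4) and those not called grey.

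All enhancers together did not separate the 2 groups. Summed over the 11222 enhancers, the libraries held 1708.5 ± 359.7 RPM with IFN-γ plus CpG and 1472.4 ± 140.8 RPM with CpG (SD, n = 6 each), a difference of 236 RPM (p = 0.213, exact permutation test within times, two-sided, 216 arrangements, smallest possible p 0.00926). The sign depended on time. The means were 1905.4 and 1306.8 RPM at 3 h, 1359.2 and 1597.7 RPM at 9 h and 1860.8 and 1512.8 RPM at 15 h (combination and CpG). At 3 h the combination libraries lay above the CpG libraries, at 9 h below and at 15 h above, with IFN-γ plus CpG 3 h replicate 2 the highest of the 12 at 2201.8 RPM. The 9085 enhancers too low to test summed to 775.4 ± 191.9 RPM with IFN-γ plus CpG and 646.4 ± 64.8 RPM with CpG (difference 129 RPM, p = 0.194, exact permutation test). Whole-library scaling keeps these shifts in the enhancer total and TMM factors remove them.

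**Figure D5:**
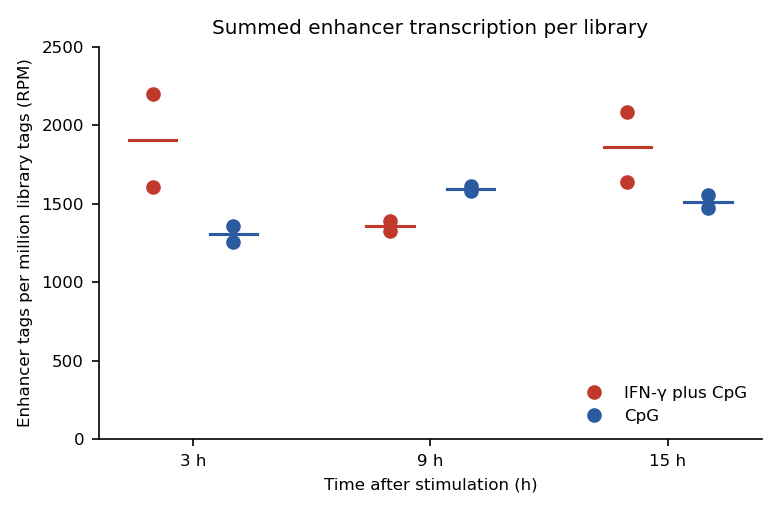
Each point is 1 library, with the RPM summed over all 11222 enhancers on the y axis (from 0) and time in hours on the x axis; horizontal lines are means of the 2 libraries with IFN-γ plus CpG (red) and CpG (blue). The red points lie above the blue ones at 3 h and 15 h and below them at 9 h, and the 2 combination libraries differ most at 3 h.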

How the data were processed

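Per the labels, macrophages from C57BL/6 bone marrow were stimulated, total RNA was extracted with TRIzol and nAnT-iCAGE libraries were made. The protocols also describe IL-4 and IL-10 treatment and a stimulation of another length than the sample times; whether these, and the named CpG ODN-1826, apply to the CAGE libraries is not stated, and no dose is used here. The build was mm39, and HISAT2 2.1.0, BWA 0.7.10, Trimmomatic 0.38 and FastQC 0.11.5 are named, all per the submitters' processing notes; which tool called the enhancers is not given in the sources used here. For each enhancer the authors deposited raw tag counts. A second table, named TPM by the authors, holds deposited RPM values: each raw count divided by its value gave 1 whole-library total per library.

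Raw counts were tested with edgeR 4.0.16 in R 4.3.3 (quasi-likelihood F-test, robust, two-sided, TMM factors from enhancer tags, filterByExpr with minimum count 5 and minimum total 15), with time as a block (8 residual degrees of freedom); effects within and between times came from a fit with 6 groups (6 residual degrees of freedom). Calls are at a Benjamini-Hochberg adjusted p under 0.05 over all enhancers or groups tested. SE is the log2 change divided by the square root of F. A fold against 0 tags is a bound at 3 tags over the group; ratios with 1 to 3 tags, and those of other enhancers, carry exact 95% intervals for counting error. Exact permutation tests were used for sums. The scripts were tested on simulated data. Same-numbered libraries did not deviate together (r = 0.007, 0.020 and 0.014 at 3, 9 and 15 h). With few tags per enhancer such deviations are largely counting error, so these values cannot tell whether the replicate numbers pair the libraries.

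Enhancers named for the pooled change were pooled calls with a mean of 5 or more tags in the higher group and 1 direction at all times. They were the 12 rises and 8 falls with the smallest p, and the 4 and 3 further ones with the largest fitted change. For 15 h minus 3 h, the 3 each way with the smallest p among its calls were named, with a mean of 5 or more tags in a group. These needed no pooled call and no single direction. Of the called groups of neighbours, the 5 rises and 3 falls with the smallest p were named. Members of runs and other enhancers described with them were chosen after their values were seen. The comparison, the lists and the rule were chosen with earlier results of these data known. Gene lists, cell type markers and sequences of the regions were not used here, since only a GRCm38 annotation could be read and coordinates were not converted. Positions are printed as deposited, whether counted from 0 or 1. Alternatives were DESeq2 1.42.0, RLE factors, scaling to whole-library totals, other filters, other gaps between neighbours, replicate blocks, no time term, all 20 libraries, limma 3.58.1 on log2 RPM with pseudocounts of 0.5, 0.1 and 2, and leaving out each library or time; the comparison with IFN-γ alone was added after the data were seen.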

Additional observations from a re-analysis of the deposited data

Results flagged for a closer look

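For 8 enhancers the effect of added IFN-γ on CpG differed between 15 h and 3 h by a test of the difference itself (edgeR, adjusted p under 0.05 over 2137 enhancers). The 6 named ones, the 3 each way with the smallest p, are given here. The log2 change at 15 h minus that at 3 h was 1.82 at chr7:75319181-75319526 (SE 0.42, adjusted p = 0.0170), 8.68 at chr11:8544429-8544852 (SE 2.08, adjusted p = 0.0213, a fitted value against 0 tags in 1 group and so no measure of size) and 3.54 at chr11:102319827-102320230 (SE 0.87, adjusted p = 0.0260). It was -3.55 at chr6:125328365-125328532 (SE 0.80, adjusted p = 0.0170), -1.89 at chr13:5839351-5839665 (SE 0.48, adjusted p = 0.0318) and -3.71 at chr17:36334414-36334921 (SE 0.98, adjusted p = 0.0405). Without 1 of the 8 libraries these differences ran, in the order given, from 1.16 to 2.30, 7.72 to 11.02 and 2.73 to 4.90, and from -4.00 to -3.09, -2.44 to -1.43 and -7.06 to -2.12; -7.06, without CpG 3 h replicate 2, is a fitted value against 0 tags. Each kept its direction, but the call was kept in 1, 2, 2, 4, 2 and 2 of 8 such fits. With DESeq2 the adjusted p was 0.582 at chr6:125328365-125328532 and 0.655 at the other 5. Apart from the enhancers called for this contrast, no result met a rule for a closer look. Groups of 2 libraries are too small for the check on single far-off libraries.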

How the results depend on the processing

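The pooled count of 706 was 686 with RLE factors, 651 with whole-library totals (419 rises) and 528 with DESeq2 (367 rises); it was 1127 with no filter, 275 with the stricter filter and 442 without the 3 h libraries, and 598 to 668 when 1 library was left out. The filter changes how many enhancers are tested; for other settings that moved a count the cause was not tested. Counts within a time were 263, 74 and 66 at 3, 9 and 15 h with no filter, 204 at 3 h and 117 at 15 h with the stricter filter, and 93, 50 and 30 with DESeq2; they were 183 to 252, 66 to 78 and 57 to 80 without 1 library. The 8 calls for 15 h minus 3 h were 0 with no filter (555 at an unadjusted p under 0.05, edgeR) and with DESeq2 (116), 31 with the stricter filter, 81, 20 and 99 with limma at pseudocounts of 0.5, 0.1 and 2, and 0 to 15 without 1 library. The 12 calls for any difference among times were 0 with no filter (428 at an unadjusted p under 0.05, edgeR), DESeq2 (91) or all 20 libraries (269, edgeR), 34 with the stricter filter, 106, 28 and 112 with limma, and 0 to 11 without 1 library. Groups of neighbours numbered 442 with the stricter filter and 595 to 647 without 1 library. The summed difference was 137.4 to 312.6 RPM (p = 0.0926 to 0.426, exact permutation test), and for the enhancers too low to test 70.0 to 167.8 RPM, without 1 library.

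With the replicate number as a block, added to time or within each time, the pooled counts were 675 and 592. The block within each time gave 300 calls at 3 h, 132 at 9 h and 109 at 15 h. The calls for any difference among times were 7 and 5. Whether the numbers pair the libraries is not known. Of 750 alternative fits of the named pooled enhancers 749 kept the call and direction, as did 184 of 184 for the named groups. The counts were 62 of 113 for the enhancers named for a change with time and 17 of 20 for differences from IFN-γ alone. No direction turned. These fits reuse the same libraries, and the enhancers were picked for a small p or a large change in them. The 750 include the 4 rises with no CpG tag and others whose direction the filter largely fixed. The kept calls are therefore a description and add no support. A tested enhancer had a median of 4 tags in a library, which limits the precision of its level.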

Other observations

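The counts of enhancers called higher and lower differed among chromosomes, and many of these counts were small. Chromosome 5 had 18 enhancers called higher and 30 lower of 124 tested, against 426 and 280 of all 2137, and falls outnumbered rises on chromosomes 13 (13 and 15 of 87), 15 (9 and 12 of 78) and 18 (7 and 9 of 52) too. Chromosome 6 had 40 higher and 15 lower of 156, and chromosome 14 had 4 and 4 of 50. Neighbouring enhancers count more than once in these numbers, and they were not tested.

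A difference among times was called at some enhancers with no pooled call. At chr5:92109227-92109609 the mean level at 9 h was 0.0378 RPM with IFN-γ plus CpG and 0.632 RPM with CpG, while at 3 h it was 1.54 and 0.605 RPM and at 15 h 0.416 and 0.544 RPM (adjusted p = 0.0328 among times and 0.817 pooled, edgeR). At chr8:123283407-123283826 the means were 0.731 and 1.92 RPM at 3 h, 2.16 and 1.67 RPM at 9 h and 2.68 and 2.05 RPM at 15 h, in the same order (adjusted p = 0.0205 among times and 0.673 pooled). Both were chosen after their values were seen.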
